A study of Mus musculus with 6 samples.

Results

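The 10 immediate early genes Fos, Fosb, Jun, Junb, Egr1, Atf3, Ier2, Dusp1, Nr4a1 and Zfp36 were followed through 6 RNA sequencing libraries of mouse kidney. They were chosen by symbol, after earlier values of these libraries had shown that 1 control library held far more of such transcripts than the other 5. All 10 were present among the 51804 gene symbols of the deposited table, each as 1 Ensembl gene, and all 10 passed the filter on low counts that left 15017 genes for testing. Because the choice rested on these levels, the levels are given as a description, and nothing is supported with them.

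Immediate early genes are transcribed within minutes of a stimulus, without new protein synthesis, from factors that are already bound or present in the resting cell. Mitogen-activated kinases act on serum response factor with its partners and on CREB, and the resulting messengers are short-lived. Most of the products are transcription factors, while others end the response by removing phosphate from the kinases or by shortening messenger life. In kidney the group is known to be switched on by ischaemia, by toxic injury and by handling of the tissue.

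The genotype given for the 3 libraries labelled knockout is Ccnb1f/f;Cdh16-Cre, that is, floxed cyclin B1 alleles with Cre, and for the 3 controls it is Ccnb1f/f, without Cre. Both groups therefore carry the floxed alleles. The promoter of Cdh16, kidney-specific cadherin, drives Cre in tubular epithelium, while the libraries are labelled kidney and also hold vessels, stroma and immune cells. In such bulk tissue, fewer cells of a type and less RNA per cell cannot be told apart. The question behind the comparison was what losing cyclin B1, which activates Cdk1 when cells enter mitosis, does to tubular cells in kidney ageing and fibrosis. The sources used here do not give age, sex, strain, tissue collection or library preparation, and the extraction text names cultured cells beside kidney. Whether each library is a mouse of its own is not said, and the spread that p-values measure may therefore be technical.

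Each library held between 16061431 and 21261227 estimated counts. The targeted gene Ccnb1 had 11, 17 and 7 counts in the controls, against 18, 15 and 11 in those labelled knockout, a log2 fold change of 0.34 (SE 0.46; edgeR quasi-likelihood test, adjusted p = 0.9995), and with so few counts it is no check of the genotype labels. Mitochondrial transcripts took 3.78% to 4.88% of the counts and transcripts annotated as retaining an intron took 2% to 2.47%, with control 3 inside both ranges at 4.11% and 2.2%. Kidney epithelium was present in all 6 libraries, with summed levels of 13450 to 16820 CPM (counts scaled to the library total) for 6 proximal tubule markers.

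The stretch upstream of the start site is where the stimulus-responsive elements of such genes are best known, so it is shown for 5 of the transcription factors, 4 picked after reading because they hold a marked half-site and Jun as one that holds none. RefSeq promoters (GRCm38.p6) were matched for 8 of the 10 genes, all but Egr1 and Ier2, and the 250 bases before the annotated start were read. The capitals mark TGACG or its reverse complement CGTCA, the half-site of the cyclic AMP response element that CREB and ATF factors recognise.
Fos, chr12:85473640-85473889, plus strand: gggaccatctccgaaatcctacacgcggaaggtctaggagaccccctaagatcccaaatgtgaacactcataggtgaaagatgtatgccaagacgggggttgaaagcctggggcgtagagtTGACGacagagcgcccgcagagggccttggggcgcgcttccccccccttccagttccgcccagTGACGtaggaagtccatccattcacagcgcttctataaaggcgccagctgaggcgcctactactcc
Fosb, chr7:19310046-19310295, minus strand: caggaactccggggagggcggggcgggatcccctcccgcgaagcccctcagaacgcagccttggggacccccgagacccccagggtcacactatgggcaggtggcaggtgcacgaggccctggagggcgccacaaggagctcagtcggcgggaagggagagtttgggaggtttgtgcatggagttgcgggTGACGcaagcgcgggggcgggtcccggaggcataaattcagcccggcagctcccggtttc
Junb, chr8:84978749-84978998, minus strand: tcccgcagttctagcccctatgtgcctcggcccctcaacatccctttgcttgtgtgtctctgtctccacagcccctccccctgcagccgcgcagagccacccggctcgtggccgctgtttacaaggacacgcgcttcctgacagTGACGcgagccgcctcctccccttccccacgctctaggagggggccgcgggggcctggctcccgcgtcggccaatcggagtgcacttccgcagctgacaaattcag
Nr4a1, chr15:101266596-101266845, plus strand: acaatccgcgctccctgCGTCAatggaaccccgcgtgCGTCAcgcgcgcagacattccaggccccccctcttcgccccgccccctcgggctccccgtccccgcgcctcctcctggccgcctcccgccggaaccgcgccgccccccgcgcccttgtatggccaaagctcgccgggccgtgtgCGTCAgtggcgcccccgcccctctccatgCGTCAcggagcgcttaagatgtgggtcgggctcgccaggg
Jun, chr4:95052223-95052472, minus strand: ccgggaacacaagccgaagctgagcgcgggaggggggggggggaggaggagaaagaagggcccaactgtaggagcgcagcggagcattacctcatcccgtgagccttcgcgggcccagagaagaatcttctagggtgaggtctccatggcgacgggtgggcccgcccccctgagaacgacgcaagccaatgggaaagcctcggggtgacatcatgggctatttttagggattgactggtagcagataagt

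The half-site TGACG, searched on both strands and added after the sequences had been read, occurred in 6 of the 8 promoters (Atf3, Dusp1, Fos, Fosb, Junb and Nr4a1) and in 17.8% of 32851 RefSeq promoter windows of the same length. Nr4a1 held 4 copies, at 233, 213, 69 and 40 bases before the start, and Fos held 2, at 129 and 66. The full palindrome TGACGTCA, which contains the half-site on each strand, was found in Dusp1, 143 bases before the start, and in 1.55% of windows. The CArG box, the recognition sequence of serum response factor, was found in Zfp36 as CCATAAAAGG, 58 bases before the start, and in 1.47% of windows. The Egr1 recognition sequence GCGGGGGCG occurred in Fosb, Nr4a1 and Zfp36 and in 2.57% of windows. All 250 bases of the Zfp36 window lie in annotated exons and inside the Ensembl span of the gene. Both Zfp36 matches are thus not upstream of the whole annotated gene. The AP-1 site TGANTCA was in none of the 8 and in 6.75% of windows, and TATAAA was in Fos and in 12.4%. These matches describe letters in a short window and no more. Sites further upstream were not looked for, so a motif missing here may lie outside the window. Only exact matches were counted, so variants were missed inside it, such as TGACATCA in the Jun stretch.

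The AP-1 subunits are leucine zipper proteins that bind DNA as dimers. The scaling of CPM, by library total and TMM factor, allows libraries to be compared but not genes. Jun (ENSMUSG00000052684, GRCm38 chromosome 4, 95049034 to 95052222) stood at 70.6, 87.5 and 90.2 CPM in knockout 1, 2 and 3 and at 51.8, 63.2 and 271 CPM in control 1, 2 and 3. Control 3 was thus 3.01 times the next library, and the other 5 lay within 1.74-fold of each other. Junb (ENSMUSG00000052837, chromosome 8, 84974484 to 84978718), a Jun relative that tempers Jun activity at many promoters, stood at 57.7, 36 and 35.1 CPM in the libraries labelled knockout and at 43.9, 39.6 and 162 CPM in the controls. Control 3 was again apart, at 2.81 times knockout 1.

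Fos (ENSMUSG00000021250, chromosome 12, 85473890 to 85477273), the classic partner of Jun, stood at 10.6, 17.6 and 8.81 CPM in the libraries labelled knockout and at 12.4, 4.51 and 37.1 CPM in the controls. Control 3 was 2.11 times the next library, knockout 2, while control 2 was the lowest of all. Fosb (ENSMUSG00000003545, chromosome 7, 19302696 to 19310051), a close relative of Fos, stood at 0.753, 8.07 and 0.784 CPM in the libraries labelled knockout and at 1.09, 0.811 and 7.42 CPM in the controls. It was the exception among the 10, since knockout 2 and control 3 were both high, with 128 and 127 counts, and the other 4 libraries held 13 to 18 counts. In knockout 2 the high Fosb went with the highest Fos of the 5 libraries other than control 3.

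Atf3 (ENSMUSG00000026628, chromosome 1, 191170296 to 191218039), a stress-induced factor of the ATF and CREB family that also pairs with Jun, stood at 3.07, 2.21 and 3.23 CPM in the libraries labelled knockout and at 2.19, 1.72 and 32.2 CPM in the controls. Control 3 was 9.99 times the next library, which ranked Atf3 first of 15017 tested genes by the ratio of control 3 to the highest other library. Behind that ratio were 552 counts in control 3 and 34 to 70 in the others.

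Egr1 (ENSMUSG00000038418, chromosome 18, 34859823 to 34864984), a zinc finger factor of growth factor and injury signalling, stood at 47.4, 48.1 and 50.7 CPM in the libraries labelled knockout and at 39, 22.3 and 439 CPM in the controls. Control 3 was 8.66 times the next library, the fourth highest ratio of all tested genes. The libraries labelled knockout were alike (48.7 ± 1.76 CPM, SD, n = 3), and controls 1 and 2 lay below all 3 of them. Nr4a1 (ENSMUSG00000023034, chromosome 15, 101266846 to 101274792), an orphan nuclear receptor, stood at 22.5, 11.5 and 33 CPM in the libraries labelled knockout and at 11.7, 11.7 and 83.2 CPM in the controls. Control 3 was 2.52 times knockout 3, and the remaining libraries were spread over 2.88-fold. Ier2 (ENSMUSG00000053560, chromosome 8, 84661331 to 84662852), a nuclear protein induced by growth factors, stood at 25.9, 18.7 and 23.6 CPM in the libraries labelled knockout and at 22.5, 14.6 and 73.8 CPM in the controls. Control 3 was 2.85 times the next library.

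Dusp1 and Zfp36 act to end the response, and control 3 was the highest library for both. Dusp1 (ENSMUSG00000024190, chromosome 17, 26505590 to 26508519), a phosphatase of mitogen-activated kinases, stood at 202, 78.7 and 156 CPM in the libraries labelled knockout and at 155, 95.7 and 417 CPM in the controls. Zfp36 (ENSMUSG00000044786, chromosome 7, 28376784 to 28380253), the RNA-binding protein tristetraprolin, which speeds decay of messengers with AU-rich elements, stood at 85.4, 56.5 and 91.7 CPM in the libraries labelled knockout and at 73.3, 70.5 and 187 CPM in the controls. Control 3 was 2.06 and 2.03 times the next library for Dusp1 and Zfp36. Knockout 2 was the lowest library for both, although it was the highest of the 5 other libraries for Fos and Fosb.

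**Figure D1:**
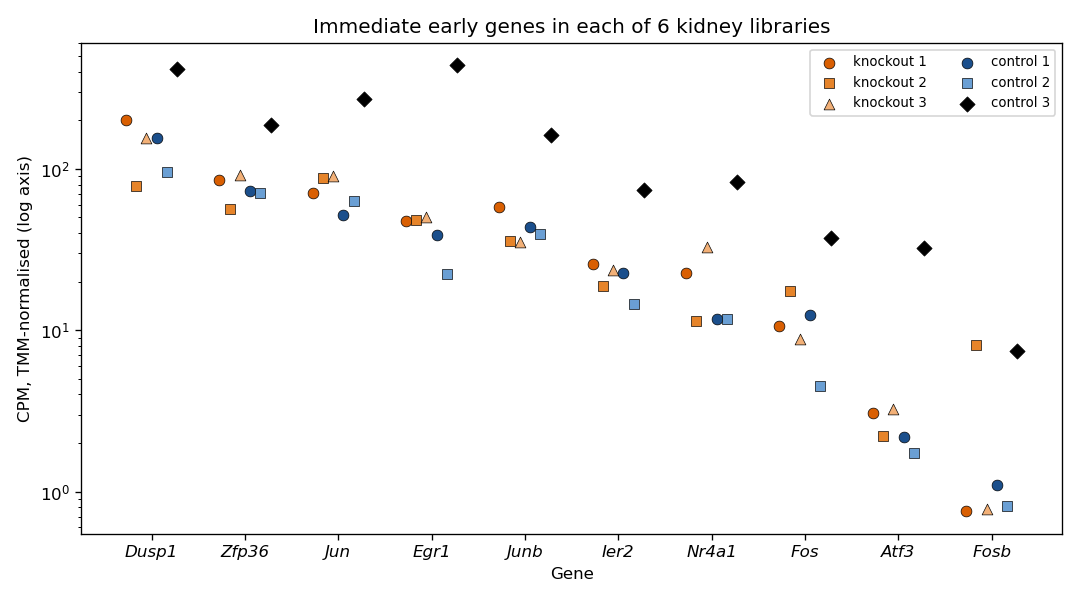
Level of each of the 10 genes in CPM (log axis) in each of the 6 libraries, 1 point per library, orange for the libraries labelled knockout, blue for controls 1 and 2 and black for control 3. Control 3 is the top point for every gene but Fosb, for which knockout 2 is as high.

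Control 3 was the highest library for 9 of the 10 genes, where 15.1% of all tested genes were highest in it. For the same 9 it was more than 2 times the next library, as it was for 0.593% of tested genes (89 of 15017). These are the values that chose the genes, and a single library allows no test. The ratio of control 3 to the highest other library had a median of 2.66 over the 10 genes and ran from 0.919 for Fosb to 9.99 for Atf3. Against the median of the other 5 libraries it ran from 2.55 for Zfp36 to 14.6 for Atf3.

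Compared per transcript length, in FPKM, the order of the 10 genes also differed in control 3. Over the other 5 libraries the median level was 77.8 FPKM for Dusp1, followed by Zfp36 at 28.2, Junb at 23.2, Jun at 22.1, Ier2 at 14.3, Egr1 at 13.4, Fos at 5.11, Nr4a1 at 5.00, Atf3 at 1.10 and Fosb at 0.23. Dusp1 did not overlap with Zfp36 in those 5 libraries, nor Nr4a1 with Atf3, while all other neighbours in this order overlapped in range. In control 3 Dusp1 was still first, at 208 FPKM, and Egr1 came next at 118 FPKM, ahead of Junb at 86.7, Jun at 82.4 and Zfp36 at 67.1. Ier2 at 46.9, Nr4a1 at 32.6, Fos at 17.5, Atf3 at 15.7 and Fosb at 2.12 FPKM completed the order there.

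Between the genotypes, none of the 10 genes was called. None passed an adjusted p of 0.05, by the quasi-likelihood test of edgeR over all genes, where 0.0133% of tested genes (2 of 15017) were called. By the same test none of the 10 had an unadjusted p under 0.05, where 485 of 15017 tested genes did. Control 3, whose high values chose the genes, is among the controls. A fall in the fold changes was therefore built in, and nothing is supported with it. Fitted log2 fold changes, knockout over control, were below 0 for 9 genes, with a median of -0.65 against -0.01 over all tested genes. They were -2.08 (SE 1.02) for Atf3, -1.77 (SE 0.96) for Egr1, -0.93 (SE 0.52) for Junb, -0.70 (SE 0.52) for Ier2 and -0.66 (SE 0.76) for Nr4a1. The others were -0.64 (SE 0.56) for Jun, -0.61 (SE 0.53) for Dusp1, -0.55 (SE 0.64) for Fos, -0.50 (SE 0.38) for Zfp36 and 0.03 (SE 1.09) for Fosb. Every adjusted p was 0.9995 by this test. The 95% confidence intervals, not adjusted for the number of genes, spanned from 1.74 log2 units (Zfp36) to 5.01 (Fosb), so large differences in either direction were not detectable for Fosb, whose interval ran from -2.48 to 2.53. The 2 groups overlapped for all 10 genes, where 8.18% of tested genes had groups that did not overlap. For the 9 genes highest in control 3, that library made a gap with knockout above control impossible. The count of overlaps is therefore no result about genotype. Summed smooth muscle and pericyte markers stood at 87.8 to 111 CPM in the libraries labelled knockout and at 121 to 129 CPM in the controls, without overlap. Of these 5 markers, 4 had an unadjusted p under 0.05 (edgeR, none called), where 485 of 15017 tested genes did. Summed fibroblast markers stood at 38.7 to 67.7 CPM in the libraries labelled knockout and at 60.3 to 77 CPM in the controls, and macrophage and monocyte markers at 112 to 149 and at 100.1 to 115 CPM. An unadjusted p under 0.05 was found for 3 of the 4 fibroblast markers and 1 of the 6 macrophage and monocyte markers (edgeR, none called). The part of these cell types in the comparison was not tested.

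Without control 3 the fitted direction turned for the 9 genes that had been below 0. The library left out is the one whose high values chose the genes. A rise in the fold changes was therefore built in, and nothing is supported with it. All 10 log2 fold changes were then above 0, with a median of 0.53 against -0.001 over all genes, and again none was called (edgeR, adjusted p = 0.9989 for each). In that fit 0.00651% of tested genes (1 of 15366) were called. An unadjusted p under 0.05 was found for 3 of the 10 and for 3.08% of tested genes. These 3 were Jun (95% confidence interval 0.15 to 0.90), Egr1 (0.14 to 1.20) and Nr4a1 (0.03 to 1.85). The values were 1.73 (SE 1.08) for Fosb, 0.94 (SE 0.39) for Nr4a1, 0.67 (SE 0.23) for Egr1, 0.54 (SE 0.33) for Atf3, 0.54 (SE 0.45) for Fos and 0.53 (SE 0.16) for Jun. They were 0.30 (SE 0.23) for Ier2, 0.22 (SE 0.38) for Dusp1, 0.12 (SE 0.21) for Zfp36 and 0.04 (SE 0.23) for Junb. For Jun, Egr1 and Atf3 all 3 libraries labelled knockout stood above controls 1 and 2, where 7.85% of tested genes did. For each of the 10 genes the highest of the 5 remaining libraries was one labelled knockout, as it was for 52.1% of tested genes.

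**Figure D2:**
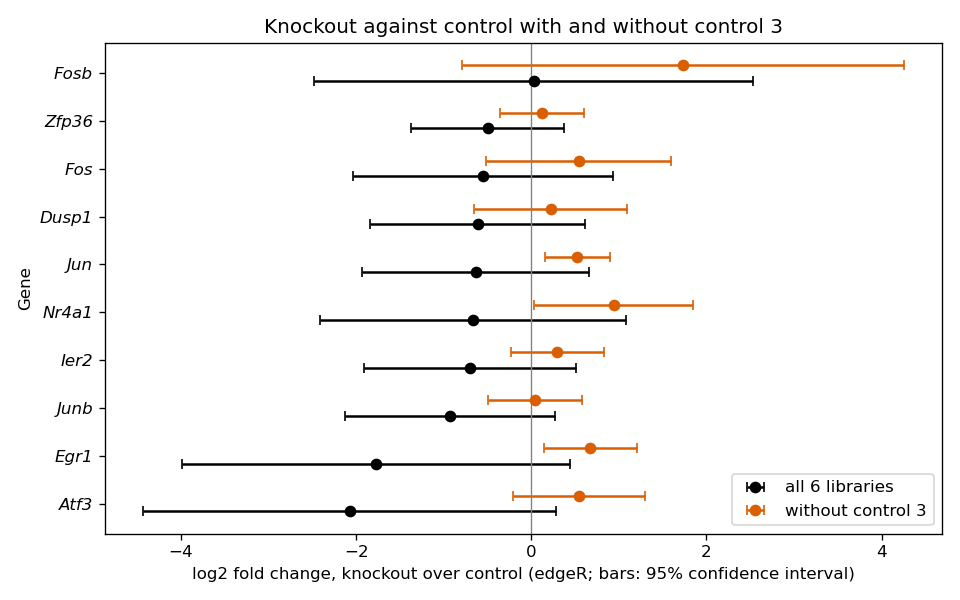
Log2 fold change of each gene, knockout over control, from edgeR, with 95% confidence intervals as bars, for all 6 libraries (black) and without control 3 (orange). Black points lie at -2.08 to 0.03 and orange points at 0.04 to 1.73, and the black and orange intervals overlap for each gene.

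Apart from control 3, the genes still varied more than most. On the log2(CPM + 1) scale the SD over the 5 other libraries was 1.03 for Fosb, 0.67 for Nr4a1, 0.65 for Fos and 0.56 for Dusp1, against a median of 0.19 over all tested genes. It was smallest for Atf3 and Zfp36, at 0.27 each, the 73.4 and 73.7 percentiles of all tested genes. The added 1 lowers the SD of genes at low levels, such as Atf3 at 1.72 to 3.23 CPM. As a ratio of highest to lowest, those 5 libraries spanned 1.874-fold for Atf3 and 1.625-fold for Zfp36. The mean deviation of the 10 genes from their own means was 1.76 log2 units in control 3, -0.41 in control 1 and -0.79 in control 2. In the libraries labelled knockout it was -0.15, -0.24 and -0.18. The spread of the controls includes control 3, whose values chose the genes, so the groups are not compared in spread. Single genes differed within the libraries labelled knockout, from 47.4 to 50.7 CPM for Egr1 to 0.753 to 8.07 CPM for Fosb.

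Transcript estimates gave most of each gene to 1 or a pair of annotated models. Jun, Junb, Ier2 and Nr4a1 were each assigned wholly to 1 coding transcript. Egr1 was divided between 2 coding transcripts, Egr1-201 and Egr1-202, and Egr1-201 took 48.9% in control 3 and 27.6% to 42.1% in the others. For Dusp1, transcripts that retain an intron took 15.9% in control 3, 15.7% to 18% in the libraries labelled knockout, 23.1% in control 1 and 32.6% in control 2. The spliced coding transcript took most of Dusp1 in all 6 libraries, from 67.4% in control 2 to 84.3% in knockout 3. Zfp36-201 took 72.8% of Zfp36 in control 3 and 60.1% to 74.8% in the others. Fosb was assigned to Fosb-201 at 83.3% in knockout 2 and 90.8% in control 3, but in knockout 1 and control 1, with 13 and 18 counts, Fosb-205 took 66.6% and 74.9%. With so few reads, and with strongly overlapping models, these Fosb shares cannot be read as a switch of isoform. Jun overlaps its antisense gene Junos, which held at most 4 counts, and the end of Junb overlaps Prdx2 on the opposite strand by 351 bases, so without known strandedness some reads there cannot be told apart.

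Other immediate early genes shared the position of control 3 in part. Of 34 further members of this class, 30 were tested, and none was called in either direction by the edgeR test (1 at an unadjusted p under 0.05). Of all 15017 tested genes, 485 had an unadjusted p under 0.05 by that test. Control 3 was the highest library for 23 of the 30, against 15.1% of all tested genes. It was over 2 times the next library for 11, against 0.593% of all tested genes. The median fold change was -0.34, and 0.24 without control 3. For 4 of the 6 most abundant, control 3 lay above all other libraries. Errfi1, a feedback inhibitor of EGF receptor signalling, stood at 1490 CPM in control 3 and 647 to 914 CPM in the others. Gadd45g, a stress sensor that activates p38 and JNK, stood at 262 against 27.2 to 95.9 CPM, and Dusp6, a phosphatase related to Dusp1, at 206 against 50.3 to 90.1 CPM. Mcl1, a survival factor of the Bcl-2 family, stood at 188 against 104 to 136 CPM. For Sgk1, a kinase of sodium transport, and Ctgf, a matrix-associated growth factor, control 3 lay inside the range of the others, at 126 CPM within 70.8 to 249 and at 112 CPM within 68.5 to 119.

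Egr2, chosen here after its values were seen as the closest relative of Egr1, stood at 11.7 CPM in control 3 and 0.415 to 1.20 CPM in the others. Jund, also chosen after its values were seen, went another way. This AP-1 subunit had 1118 counts, or 64.8 CPM, in knockout 1 and 2.38 to 4.11 CPM in the other 5 libraries, control 3 included. Its log2 fold change was 3.02 (SE 1.10), and it is the 1 gene of the 30 with an unadjusted p under 0.05 (edgeR). The difference rests on knockout 1 alone, and its cause was not tested.

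The kinases and resting factors upstream of the group were mostly near the other libraries in control 3. Of 24 such genes, all tested, none was called (0 at an unadjusted p under 0.05), control 3 was the highest library for 7 (it was highest for 15.1% of all tested genes) and over 2 times the next library for 0, and its median ratio to the median of the other libraries was 0.992. Mapk14 (p38 alpha) stood at 215 CPM in control 3 and 176 to 211 CPM in the others, Map2k2 at 144 against 114 to 167 CPM and Mapkapk2 at 116 against 93 to 143 CPM. Crem, a cyclic AMP response factor named after its values were seen, stood at 26.7 CPM in control 3 against 10.9 to 15.6, which is 1.71 times the next library. Other transcription factors of this list were also named after their values were seen. Srf (serum response factor) stood at 52.4 CPM in control 3 against 32.8 to 43.7, and Creb1 at 49.3 against 34.5 to 47.9 CPM. Elk1 was at 10.3 CPM, within 10.2 to 13.3. Among partners, repressors and downstream genes, 16 of 20 were tested and none was called (1 at an unadjusted p under 0.05). Control 3 was the highest library for 12 of the 16, against 15.1% of all tested genes. Zfp36l1, a relative of Zfp36, stood at 230 CPM in control 3 against 89.7 to 141 CPM. Plau, the urokinase protease, stood at 505 against 340 to 412 CPM, and Vegfa, the endothelial growth factor, at 358 against 252 to 300.5 CPM. Ccnd1, the G1 cyclin, was at 255 CPM, within 165 to 376.

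Heat shock genes are best known for their response to unfolded protein. All 14 listed genes were tested, none was called (1 at an unadjusted p under 0.05), and control 3 was the highest library for 13, the exception being Hspd1, where 15.1% of all tested genes were highest in it. It was over 2 times the next library for 4 of the 14, against 0.593% of all tested genes. For others it was only slightly above, as for Hspa8 at 1.04 times. Among the 4 most abundant, Hspa8 stood at 3876 CPM in control 3 against 2183 to 3737, Hsp90ab1 at 2305 against 1082 to 1815, Hsp90aa1 at 1263 against 442 to 926 and Hspd1 at 949 against 625 to 979 CPM. The inducible Hspa1b, named after its values were seen, stood at 1244 CPM in control 3, 226 in knockout 2, 144 in control 1 and 46.5 to 58.8 in the rest. Hspa1b and its neighbour Hspa1a are near-identical, so reads can be divided between them. Knockout 2 was thus the second library for this gene, as control 3 was for Fosb. Of 8 glucocorticoid response genes, a class to which Dusp1 and Zfp36 also belong, none was called (0 at an unadjusted p under 0.05). Control 3 was the highest library for 4 of the 8, against 15.1% of all tested genes. Besides Errfi1 and Sgk1 above, Fkbp5 was lowest in control 3, at 149 CPM against 190 to 312, and Tsc22d3 lay within the range of the others, at 86.7 CPM against 38.7 to 101.

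**Figure D3:**
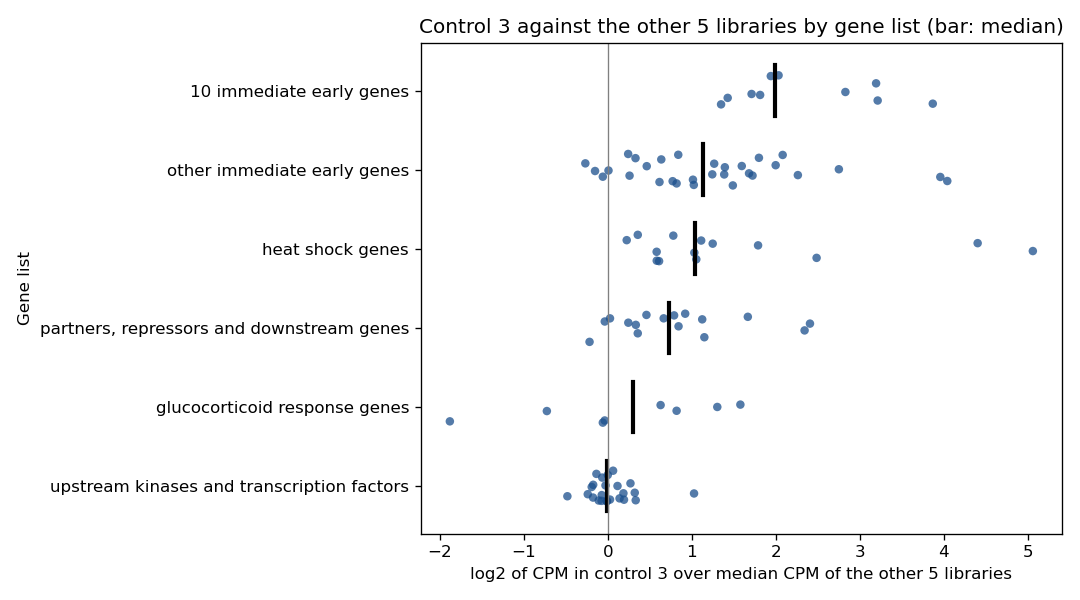
Ratio of CPM in control 3 to the median CPM of the other 5 libraries, as log2, 1 point per tested gene, by gene list, with a black bar at the list's median. The 10 genes lie at ratios from 2.55 (Zfp36) to 14.6 (Atf3), and the upstream kinases and factors have a median ratio of 0.992.

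The genes nearest in profile were found by root mean square distance on the log2(CPM + 1) scale, each gene centred on its mean over the 6 libraries, from the mean profile of the 10. The 8 nearest symbols were Ihh (0.196), Apold1 (0.213), Dusp6 (0.241), Igkv8-24 (0.250), Maff (0.269), Nr4a3 (0.292), Igkv12-46 (0.298) and Igkv17-127 (0.312). The 10 genes themselves, which made the profile, lay between 0.180 (Ier2) and 0.834 (Fosb), and the median of all other tested genes was 0.832. Ihh, the secreted ligand Indian hedgehog, stood at 65.1 CPM in control 3 and 13.3 to 19.9 CPM in the others. Apold1, an early response gene of endothelium, stood at 9.40 against 1.37 to 3.32 CPM, Maff, a small leucine zipper factor, at 17.9 against 2.59 to 5.85 CPM, and Nr4a3, a relative of Nr4a1, at 7.89 against 0.364 to 1.10 CPM. The 3 Igkv genes are variable segments of the immunoglobulin kappa chain, at 4.85 to 6.72 CPM in control 3 and at most 1.40 CPM elsewhere.

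**Figure D4:**
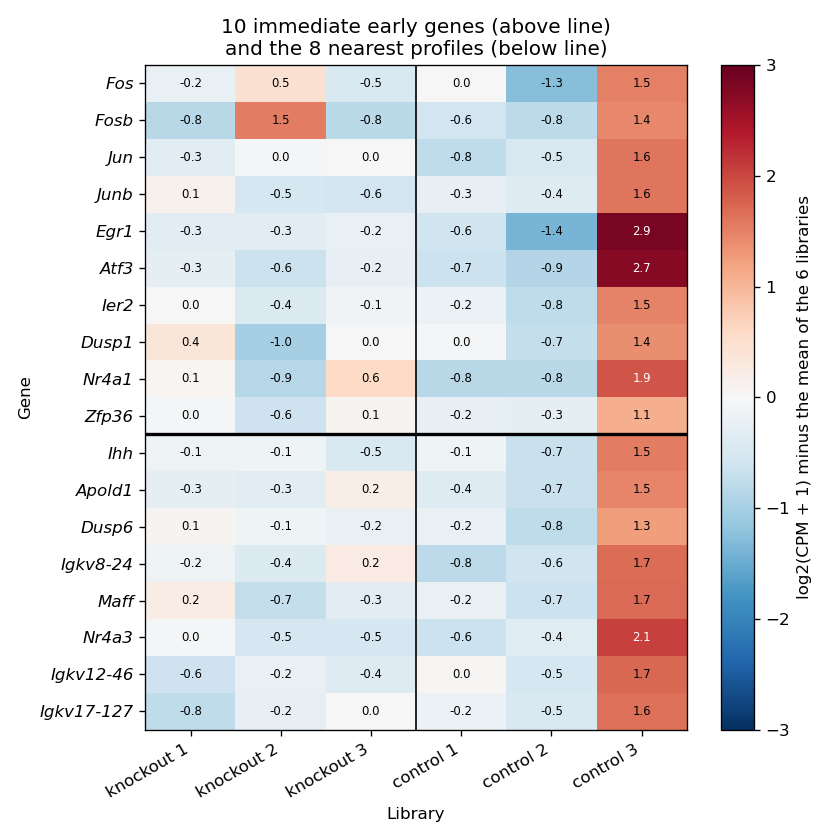
Deviation of log2(CPM + 1) from the mean of the 6 libraries for the 10 genes (above the horizontal line) and the 8 nearest profiles (below it), with columns for libraries and a vertical line between the libraries labelled knockout and the controls. The control 3 column is red throughout, and Fosb is also red in knockout 2.

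Immunoglobulin transcripts were high in control 3 too. Of the 89 genes at over 2 times the next library there, 32 were immunoglobulin genes, 9 were among the 10 genes, 11 were other immediate early genes, 4 were heat shock genes, 2 were partners or downstream genes and 31 were neither immunoglobulin genes nor in a list. The 4 B and plasma cell markers summed to 562 CPM in control 3 and to 107 to 238 CPM in the other 5 libraries (117 to 238 CPM in the libraries labelled knockout and 107 to 231 CPM in controls 1 and 2). Control 3 was the highest library for 3 of these 4, against 15.1% of all tested genes. Igkc stood at 342 against 71.5 to 156 CPM, Jchain at 217 against 34.8 to 81 CPM and Cd79a at 2.45 against 0.304 to 1.76 CPM, while Ms4a1, the B cell antigen CD20, was at 0.643 CPM within the range of 0.121 to 0.820 CPM. The part of these cells in the levels of the 10 genes was not tested. For 13 of 16 cell types the summed markers of control 3 lay inside the range of the other libraries. The other exceptions were small: podocyte markers summed to 318 CPM in control 3 against 323 to 419, and smooth muscle and pericyte markers to 129 against 87.8 to 122 CPM.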

How the data were processed

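RNA from 6 mouse kidney libraries, 3 labelled knockout and 3 control, was compared. The authors deposited 1 table of 128603 transcripts with an estimated count and an FPKM value per library. Per the submitters' processing notes the tools included HISAT2 2.0.1 and Cuffdiff 2.2.1, besides cutadapt 1.9.1, FastQC 0.10.1 and bcl2fastq 2.17.1.14, with build GRCm38. The sources used here do not say which tool counted, or with what strand setting.

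Estimated counts were summed per gene symbol and rounded (87.9% of sums lay within 0.01 of a whole number). Genes were filtered with filterByExpr (minimum count 10), scaled by TMM and tested with the quasi-likelihood test of edgeR 4.0.16 (R 4.3.3), with Benjamini-Hochberg adjustment over all tested genes and a threshold of 0.05. The deposited FPKM values were summed per gene to order genes by level and, in an alternative, tested as log2(FPKM + 1) with limma 3.58.1. DESeq2 1.42.0 was another alternative. Standard errors were taken from the fold change and its F statistic. A total of 3 counts corresponds to 0.141 to 0.187 CPM, and intervals cover the spread between libraries only. Fits were checked on simulated data.

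The 10 genes, the gene lists and the tests were chosen with earlier results of these data known. All 10 genes were named. From each other list the 4 most abundant genes were named (6 of the other immediate early genes), except 1 upstream gene that is not reported here, with the 8 nearest profiles, leaving out Gm, Rik and LOC symbols. Promoters came from RefSeq tables of GRCm38.p6. Cell type markers were summed as CPM.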

Additional observations from a re-analysis of the deposited data

How the results depend on the processing

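None of the 10 genes was called under any of 15 alternatives to the reported edgeR fit, and the smallest adjusted p of any of them was 0.889. DESeq2 gave no adjusted p for Atf3 and Egr1. The number of genes called, 2 in the reported fit, was 15 with DESeq2, 5 without a filter on low counts, and 1 with limma on log2(FPKM + 1), on log2(FPKM + 0.1) and without a filter on FPKM. It ran from 1 (without knockout 3, control 1 or control 3) to 6 (without knockout 1) when 1 library was left out. The cause of these differences was not tested. The median log2 fold change of the 10 genes was -0.65 in the reported fit, -0.36 with limma on log2(FPKM + 1), and from -1.05 (without control 2) to 0.53 (without control 3) with 1 library left out. With 1 library left out, the log2 fold change ran from -1.02 to 0.54 for Fos, -1.01 to 0.53 for Jun, -1.27 to 0.041 for Junb, -2.30 to 0.67 for Egr1, -2.60 to 0.54 for Atf3, -1.09 to 0.30 for Ier2, -0.97 to 0.22 for Dusp1, -1.08 to 0.94 for Nr4a1 and -0.74 to 0.12 for Zfp36. Each of these 9 highest values is the one without control 3, and each reverses the direction. Fosb, at 0.03 in the reported fit, ran from -2.003 (without knockout 2) to 1.73 (without control 3), and reversed to -0.037 with limma without a filter, -0.37 without control 1 and -0.44 without control 2. Fosb did not pass the FPKM filter. Of 88 values of the 10 genes in the 9 alternatives that kept all libraries, 86 kept their direction. No value passed the threshold, but those of Atf3 and Egr1 in DESeq2 had no adjusted p to set against it. The median ratio of control 3 to the highest other library, 2.66, was 2.56 without TMM, 2.67 with RLE factors and 2.56 on FPKM, and 3.97 against the median of the other libraries, a reference that is lower by construction. Depth limits Fosb most, at 13 to 18 counts in 4 libraries.

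The groups share replicate numbers, but the labels do not say that a number marks a shared animal or day. The correlations of same-numbered libraries' deviations from their group means were 0.09, -0.091 and 0.116 over 15017 genes, so the numbers were not taken to pair the libraries. With the replicate number as a block, 2 genes and none of the 10 were called, the median log2 fold change of the 10 was -0.37 and Fosb was at -0.20. Knockout 1 and control 1 correlated best with each other, as did knockout 3 and control 3, but knockout 2 and control 2 did not. Between libraries of different number the correlations ran from -0.17 to 0.076. These values cannot decide whether the libraries were paired, since deviations within a group of 3 are bound to sum to 0.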
